A study of Mus musculus with 6 samples.

Results

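Prox1, Isl1, Pou4f1, Pou3f2, Pou3f4, Onecut2, Nkx2-2, Lhx2 and Otx2 are homeobox genes of neural development, of which Pou3f2, Pou3f4 and Pou4f1 also carry a POU domain. These 9 genes were taken by symbol, and all 9 had a row among the 22477 genes of the count table. RNA was sequenced from 4 lung tumors (called tumor 3, 4, 5 and 6) and 2 samples of normal lung (normal 1 and 2), each from a different mouse. Every mouse, the normal ones included, is labelled Rb1/Trp53/MycT58A, meaning floxed Rb1, floxed p53 and a Cre-activated MycT58A allele, a model of small cell lung cancer known as RPM. Every mouse is also labelled as having received Ad5CGRP-Cre, an adenovirus whose CGRP promoter drives Cre in pulmonary neuroendocrine cells, so the normal lungs carry the alleles and had the virus too. The protocol puts induction at 8 weeks of age with 25000000 PFU in the trachea. The sources used here do not state the age at collection of these 6 animals, nor which arm, if any, of the protocol's treatments each was in. Nothing says more of the replicates than that each is 1 mouse, so a p-value measures the spread among these mice. Total counts were 91049413 and 99122494 in the normal libraries and 54735438 to 70817440 in the tumors. All 8 neuroendocrine markers listed were called higher in tumors (Chga, Syp and Insm1 among them, with Calca losing its call when either normal library was left out) and all 8 normal lung markers lower (Scgb1a1, Ager and Pecam1 among them). The markers therefore followed the tissue labels.

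Homeodomain proteins bind short AT-rich DNA sites, and combinations of them set which type of neuron or endocrine cell a progenitor becomes. In POU proteins a second DNA-binding domain is linked to the homeodomain, and LIM homeodomain proteins such as Isl1 and Lhx2 act with LIM cofactors. Several of these factors are known from neuroendocrine tumors of the lung and prostate, PROX1, ONECUT2 and BRN2 (the product of POU3F2) among them in human tumors.

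The promoter sequences of 4 of the 9 genes are shown because their tumor levels cover the patterns described below. Prox1 and Pou3f4 were high in every tumor, Pou3f2 was high but uneven, and Isl1 was at 0 in 1 tumor. Each sequence runs from 250 bases before to 50 bases after a RefSeq start site on GRCm38.p6, which is not the mm9 build named for these data, and capitals mark exact matches to the motifs named below.
Prox1 (chr1:190170778-190171077, minus strand): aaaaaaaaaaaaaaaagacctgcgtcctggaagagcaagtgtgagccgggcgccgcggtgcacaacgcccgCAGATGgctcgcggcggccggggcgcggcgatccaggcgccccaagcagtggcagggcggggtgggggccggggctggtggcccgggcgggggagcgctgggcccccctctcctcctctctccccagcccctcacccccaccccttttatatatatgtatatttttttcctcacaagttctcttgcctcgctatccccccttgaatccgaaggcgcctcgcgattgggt
Pou3f4 (chrX:110814129-110814428, plus strand): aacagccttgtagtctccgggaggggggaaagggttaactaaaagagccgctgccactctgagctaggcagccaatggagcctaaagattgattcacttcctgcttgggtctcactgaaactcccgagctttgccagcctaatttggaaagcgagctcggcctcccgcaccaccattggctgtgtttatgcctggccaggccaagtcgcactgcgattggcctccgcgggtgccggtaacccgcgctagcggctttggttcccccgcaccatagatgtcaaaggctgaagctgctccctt
Pou3f2 (chr4:22488317-22488616, minus strand): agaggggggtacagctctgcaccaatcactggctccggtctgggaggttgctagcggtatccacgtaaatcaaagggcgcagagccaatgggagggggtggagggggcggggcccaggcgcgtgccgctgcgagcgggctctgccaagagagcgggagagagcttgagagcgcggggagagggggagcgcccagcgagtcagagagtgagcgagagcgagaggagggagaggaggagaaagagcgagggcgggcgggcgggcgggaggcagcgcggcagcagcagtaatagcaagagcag
Isl1 (chr13:116309639-116309938, minus strand): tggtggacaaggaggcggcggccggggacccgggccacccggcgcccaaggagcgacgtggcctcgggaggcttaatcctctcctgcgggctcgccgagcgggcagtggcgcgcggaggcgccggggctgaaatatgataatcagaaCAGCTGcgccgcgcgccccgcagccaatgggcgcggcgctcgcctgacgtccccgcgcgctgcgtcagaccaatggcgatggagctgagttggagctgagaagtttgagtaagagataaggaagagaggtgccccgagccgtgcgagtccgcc
The motifs searched on both strands were the E-box forms CACGTG (as bound by Myc), also CAGCTG, and further CAGATG (as bound by proneural factors), the homeodomain core TAATTA, the octamer ATGCAAAT and the CUT core ATCGAT, none of which overlapped another in these windows. The Prox1 promoter shown held CAGATG with its first base 179 bases before the start site, and the other Prox1 promoter listed held none of the 6. Isl1 held CAGCTG with its first base 103 bases before it. Pou3f2 and Pou3f4 held none of the 6. Over all 32851 promoters of the same length, 17.2% held CAGATG, 16.3% held CAGCTG, 7.15% held CACGTG, 5.29% held TAATTA, 1.74% held the octamer and 0.925% held the CUT core. The 13 promoters listed for 8 of the 9 genes had a median of 17 CpG dinucleotides and 59.7% G+C, beside 7 and 52.7% over all promoters. Among these 13, TAATTA matches stood in 2 promoters of Otx2, 1 with a single match and 1 with 3. CACGTG stood in the Nkx2-2 promoter alone. CAGATG stood also in promoters of Lhx2, Nkx2-2 and Otx2, and CAGCTG also in that of Pou4f1. No promoter among them held the octamer or the CUT core.

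Of these genes, 5 rose in tumors, namely Prox1, Onecut2, Pou3f4, Pou3f2 and Lhx2. Isl1 and Pou4f1 did not pass the test, and Nkx2-2 and Otx2 had too few counts to enter it. The test was edgeR's quasi-likelihood test over the 18027 genes that passed its low-count filter, with Benjamini-Hochberg adjustment over all of them, and a gene was called at an adjusted p under 0.05. By that rule 31.3% of all genes tested were higher in tumors and 32.6% lower, 63.9% in all. Each of the 4 tumors was above both normal libraries for 6 of the 9 genes, which are the 5 that rose and Nkx2-2, beside 31.5% of all 22477 genes and 37.4% of those tested, with 39.8% of those tested below both in every tumor. In RNA of whole tissue, more cells of a type and more RNA per cell cannot be told apart. Levels below are CPM, counts scaled to a common library size after composition (TMM) scaling.

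**Figure D1:**
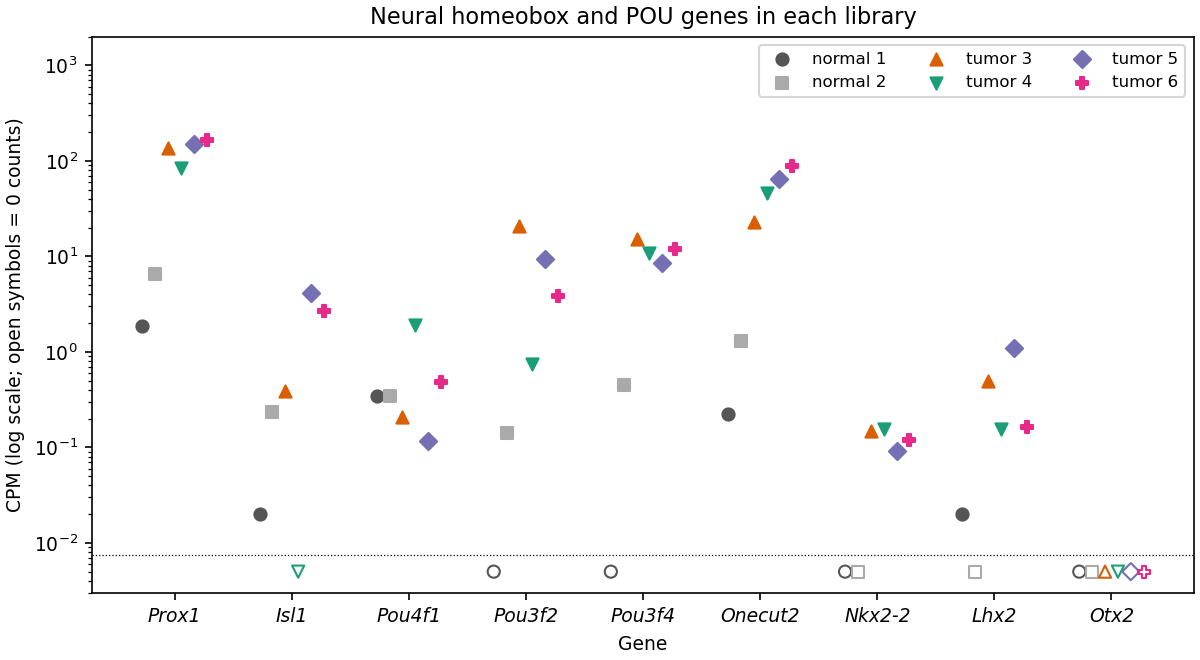
Level of each of the 9 genes in each library, as CPM on a log axis, with 1 symbol per library and open symbols under the dotted line for libraries with 0 counts. For Prox1, Onecut2, Pou3f4, Pou3f2, Lhx2 and Nkx2-2 every tumor lies above both normal libraries, whereas Isl1 and Pou4f1 overlap and Otx2 has no count.

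Prox1, a Prospero-type homeobox gene that sets lymphatic endothelial identity and acts in neuronal differentiation, had the highest tumor level of the 9. It stood at 1.89 and 6.57 CPM in normal 1 and 2 and at 137, 84.6, 152 and 165 CPM in tumors 3 to 6. The groups were far apart, and tumor 4 was the lowest tumor. The log2 fold change was 4.99 ± 0.65 (SE, n = 4 tumors and 2 normal libraries, edgeR adjusted p = 0.000755), from 4.23 ± 3.31 to 135 ± 35.3 CPM (mean ± SD). It was 4.34 without normal 1 and 6.14 without normal 2, and passed in both cases. Of the markers of lymphatic endothelium, the vessel cells of lung that use Prox1, 7 were tested. Of these, 4 fell (Lyve1, Flt4, Mmrn1 and Pdpn) and 3 did not pass, Reln among them with a log2 fold change of 2.05. The summed level of the 7 was 801 and 909 CPM in normal lung and 68.0 to 218 CPM in tumors. The highest tumor value came with Reln at 196 CPM in tumor 6. In normal 1 and 2, much of the sum was Lyve1, at 457 and 567 CPM, and Pdpn, at 186 and 182 CPM. Whether other lung cells share these markers was not tested. No marker on that list was at 0 in a tumor, Flt4 being the lowest of the called ones at 2.00 to 3.28 CPM. Heart muscle also uses Prox1, and of 8 cardiac markers Myh6, Myh7, Actc1, Tnnt2, Tnni3 and Myl7 fell while 2 did not pass. Without normal 2 the calls for Myh6, Tnnt2, Tnni3 and Myl7 were lost. The summed cardiac level was 314 and 724 CPM in normal 1 and 2 and 34.5 to 74.6 CPM in tumors. The 2 normal libraries thus differed in both Prox1 and the cardiac sum. Myh7 went the other way, at 169 CPM in normal 1 and 140 CPM in normal 2. Onecut2 and Isl1 were also higher in normal 2, as given below. The part of lymphatic endothelium or heart muscle in the Prox1 level of normal lung or of tumors was not tested. In GENCODE annotation of GRCm38 the antisense genes Prox1os and Gm28172 overlap Prox1, and since no source used here states the strand setting of the counting, their reads cannot be separated.

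Onecut2, a CUT homeobox gene of liver, pancreas and neuron development, stood at 0.223 and 1.29 CPM in normal lung and at 22.8, 46.3, 64.3 and 88.4 CPM in tumors 3 to 6. No tumor was near the normal range, and tumor 6 had 3.87 times the level of tumor 3. The log2 fold change was 6.19 ± 1.00 (SE, edgeR adjusted p = 0.00197), or 5.41 without normal 1 and 7.93 without normal 2, past the threshold each time. Onecut1, its paralog, had 2 and 20 counts in normal lung and 79, 23, 94 and 21 in tumors, and did not pass (log2 fold change 2.74 ± 1.09, adjusted p = 0.0637).

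The class III POU genes Pou3f4 and Pou3f2 encode BRN4 and BRN2, regulators of neural progenitors and neurons. Pou3f4 had 0 and 42 counts in normal 1 and 2 and 1015, 558, 653 and 797 counts in tumors 3 to 6. That is 0.453 CPM in normal 2 and 8.50 to 15.1 CPM in tumors, so the tumors lay close together and above both normal lungs. Its log2 fold change was 5.68 ± 1.45 (SE, edgeR adjusted p = 0.0128). Leaving out normal 2 left 0 normal counts, against which the tumors were at least 379-fold higher by a floor of 3 counts over the group, and without normal 1 the log2 fold change was 4.66. Pou3f2 had 0 and 13 counts in normal lung and 1389, 38, 725 and 258 counts in tumors 3 to 6. Tumor 3, at 20.7 CPM, had 27.7 times the level of tumor 4, at 0.746 CPM, while tumor 4 was still above normal 2, at 0.140 CPM. Its log2 fold change was 6.93 ± 1.98 (SE, edgeR adjusted p = 0.0198). The call was lost without normal 1 (5.92, adjusted p = 0.0802) and with limma voom (7.63, adjusted p = 0.0573), and over all alternatives that tested it the adjusted p ran from 3.2e-07 with DESeq2 to 0.0802. Without normal 2 the tumors were at least 302-fold higher. Of the other members of the class, Pou3f1 did not pass (log2 fold change 0.13 ± 0.81), and Pou3f3 was under the filter with 14 and 30 counts in normal lung and 0, 0, 2 and 0 in tumors. Without the filter Pou3f3 was called lower in tumors (log2 fold change -4.73, edgeR adjusted p = 0.0127), as were 27.1% of the genes tested that way.

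Pou4f1, the class IV POU gene of sensory neurons that encodes BRN3A, was present at a like low level in both normal lungs, 0.345 CPM each. Tumors 3 to 6 stood at 0.209, 1.92, 0.117 and 0.479 CPM, so 2 tumors were above and 2 below the normal libraries. The groups overlapped, and the log2 fold change was 0.97 ± 1.14 (SE, edgeR adjusted p = 0.481). The sign of the change came from tumor 4, without which it was -0.36 (adjusted p = 0.653).

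Isl1, a LIM homeobox gene of motor neurons, sensory neurons and pancreatic islets, had 2 and 22 counts in normal lung and 26, 0, 320 and 181 counts in tumors 3 to 6. Tumors 5 and 6, at 4.17 and 2.71 CPM, stood well above the rest, tumor 3, at 0.387 CPM, was near normal 2, at 0.237 CPM, and tumor 4 had no count, which allows up to 0.0589 CPM. Such limits cover counting error only. The log2 fold change of 3.81 ± 2.13 did not pass (SE, edgeR adjusted p = 0.158). It passed with DESeq2 (3.88, adjusted p = 0.0416) and without tumor 4 (4.23, adjusted p = 0.0424), and over all alternatives that tested it the adjusted p ran from 0.0416 to 0.429.

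Lhx2, the other LIM homeobox gene of the 9 and a regulator of forebrain, eye and hair follicle, was scarce. It had 2 and 0 counts in normal lung and 33, 8, 85 and 11 counts in tumors 3 to 6. Every tumor was above both normal libraries, and the ratio of summed counts had a 95% interval of 13.6 to 417, from counting error only, which is too narrow if mates of a read pair were counted singly. The log2 fold change was 5.33 ± 1.47 (SE, edgeR adjusted p = 0.0172), and the call was lost without normal 2 (4.44, adjusted p = 0.0949).

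Nkx2-2, which patterns the ventral neural tube and islet endocrine cells, had 0 counts in both normal lungs and 10, 8, 7 and 8 counts in tumors 3 to 6. The tumors were alike, at 0.0912 to 0.157 CPM, and together at least 8.03-fold above a floor of 3 counts over the normal group. This limit was 3.90-fold without normal 1 and 4.14-fold without normal 2. Without the low-count filter it passed (edgeR adjusted p = 0.00601), where 25.2% of 21832 genes were higher. Its antisense neighbor Nkx2-2os, which overlaps it on GRCm38, had 0 and 1 counts in normal lung and 18, 5, 55 and 60 in tumors, and reads of this pair cannot be told apart without strand. Otx2, a forebrain and photoreceptor gene, had 0 counts in all 6 libraries, which allows up to 0.0305 to 0.0589 CPM depending on the library.

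**Figure D2:**
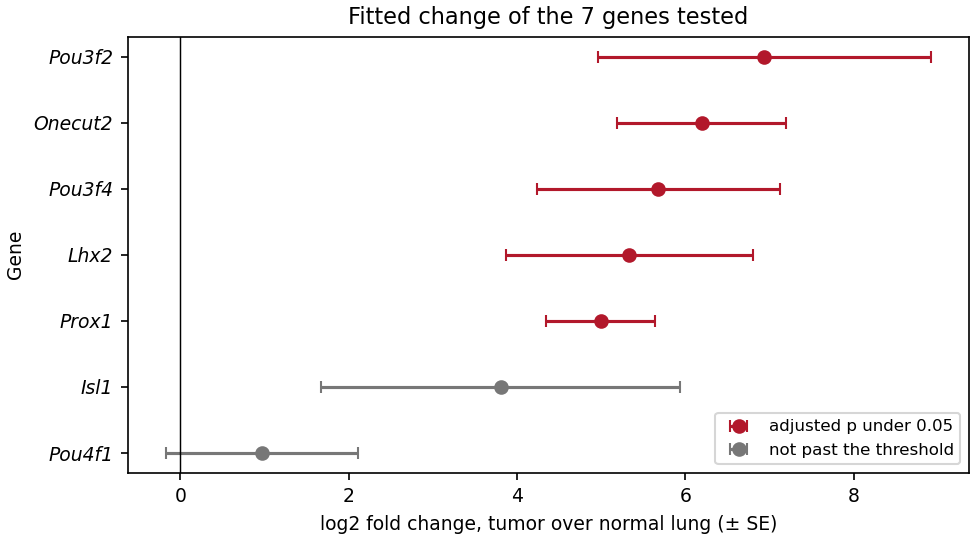
Fitted log2 fold change, tumor over normal lung, with its SE, for the 7 genes that entered the test, red where the adjusted p was under 0.05. Prox1 has the smallest SE, 0.65, and the bar of Pou4f1 crosses 0.

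Per kilobase of exon (GENCODE M21 lengths on GRCm38), the tumor level was 10.1 to 19.7 CPM for Prox1, and the mean tumor level was 3.97 CPM for Pou3f4, 3.42 for Onecut2, 1.55 for Pou3f2, 0.722 for Isl1, 0.153 for Pou4f1, 0.143 for Lhx2, 0.0513 for Nkx2-2 and 0 for Otx2. Prox1 did not overlap Pou3f4, which ran from 2.90 to 5.17 CPM per kilobase. Every later neighbor in that order overlapped the next across the 4 tumors, except Nkx2-2 and Otx2.

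The 9 genes also differed in how even they were among tumors. The range from the lowest to the highest tumor, in log2 CPM, was 0.83 for Pou3f4 and 0.96 for Prox1, close to the median of 0.86 over all genes tested. It was 1.95 for Onecut2, 2.63 for Lhx2, 3.76 for Pou4f1, 4.75 for Pou3f2 and 7.31 for Isl1. Of all genes tested, 2.27% had a wider range than Pou3f2. Tumor 4 was the lowest for Prox1, Pou3f2, Isl1 and Lhx2, the last narrowly, at 0.157 CPM beside 0.165 CPM in tumor 6. Since tumor 4 had 0 counts of Isl1, the size of the Isl1 range depends on the prior count of 2. Tumor 4 was instead the highest for Pou4f1, tumor 3 for Pou3f2 and Pou3f4, tumor 5 for Isl1 and Lhx2, and tumor 6 for Prox1 and Onecut2. No single tumor was thus the highest for more than 2 of these 7 genes.

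**Figure D3:**
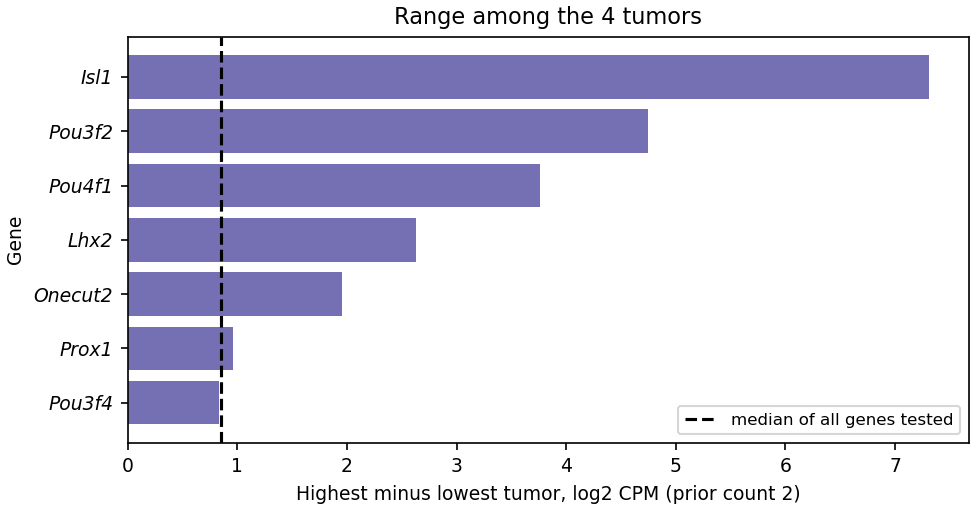
Range among the 4 tumors, as the highest minus the lowest log2 CPM with a prior count of 2, for the 7 genes tested. The dashed line is the median over all genes tested, 0.86, and Isl1 reaches 7.31, a value set in part by the prior count because 1 tumor had 0 counts.

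Normal 2 was above normal 1 for most of these genes. The ratio of normal 2 to normal 1 was 3.48 for Prox1, 5.79 for Onecut2 and 11.7 for Isl1, and Pou3f2 and Pou3f4 had counts in normal 2 alone. Pou4f1 was equal in both (ratio 1.00), and Lhx2 had its 2 counts in normal 1. Over all genes tested the median difference of normal 2 from normal 1 was 0.03 in log2 CPM. Neuroendocrine markers moved the same way in part, with Insm1 at 0.163 and 1.27 CPM and Chga at 0.142 and 1.34 CPM in normal 1 and 2. Insm1 and Chga were among the markers that differed most, and not all 8 were higher in normal 2. Syp differed little, at 5.38 and 5.80 CPM, and Calca went the other way, at 1.96 and 1.40 CPM. The summed level of the 8 neuroendocrine markers was 20.5 and 26.3 CPM in normal lung and 936 to 1602 CPM in tumors. The part of neuroendocrine cells in normal 2 in these values was not tested.

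Related homeobox and POU genes on a list of 95 showed calls in both directions. Of these 92 were in the table, 39 entered the test, 16 rose, 4 fell and 19 did not pass. The median of their log2 fold changes was 2.74, and that of all genes tested 0.02. The share that rose, 41.0%, stands beside 31.3% of all genes. Some of the 39, such as Six6 with 0 normal counts, entered the test through the tumors and could only be called higher. Without normal 1 the counts were 8 higher and 2 lower, where calls over all genes also dropped, to 3373 higher of 18716 tested. Without normal 2 they were 13 and 1, with 3740 higher of 18680 over all genes. Among 6 LIM homeobox genes tested, Lhx3 and Lmx1b rose by 5.90 ± 0.60 and 5.53 ± 0.79 on the log2 scale (SE, edgeR adjusted p = 0.0003 and 0.00116), the latter by 4.89 without normal 1 and 6.65 without normal 2. Lmx1a and Isl2 rose as well, though Isl2 missed the threshold when either normal library was left out. Lhx6, a gene of interneurons and mesenchyme, was 7.87-fold lower.

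Of 6 other neural homeobox genes tested, 5 rose and 1 did not pass. Six2, a gene of kidney and craniofacial progenitors, had 0 and 6 counts in normal lung and 54, 66, 212 and 138 in tumors 3 to 6. Every tumor was above both normal libraries, and the log2 fold change was 5.69 ± 1.28 (SE, edgeR adjusted p = 0.00774), or 4.69 without normal 1. Six6, Dbx2 and En2 rose as well, from 0 or 1 count in a normal library, with calls for Six6 and En2 lost when either normal library was left out. Six6 had 0 normal counts and was at least 12.2-fold higher. Of 7 other POU genes tested, 1 rose, 1 fell and 5 did not pass. Pou2f3, the tuft cell regulator, fell by 2.02 on the log2 scale, a call lost with DESeq2, without normal 1, without normal 2 and without tumor 5. Of 5 NK homeobox genes tested, 1 rose and 4 did not pass. Nkx2-1, the lung lineage factor of that family, did not pass (log2 fold change -0.18 ± 0.36).

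Of 6 CUT and Prospero genes tested, 3 rose, 1 fell and 2 did not pass. Satb1 and Cux2 rose 2.71-fold and 2.33-fold, and Cux1 fell by 0.90 on the log2 scale, at edgeR adjusted p = 0.0156, 0.0336 and 0.0473. None of these 3 passed without normal 1, Satb1 was the only one to pass without normal 2, Cux2 also failed without tumor 5, and Cux1 also failed without tumor 3, with RLE, upper quartile or no composition scaling, and with the stricter filter. Of the paired-like genes, Phox2a, an autonomic neuron gene, rose 3.47-fold (edgeR adjusted p = 0.00334), and its call held under every alternative run. Prrxl1 rose from 0 and 2 counts, a call lost without normal 1, and Prrx1, a mesenchymal gene, fell by 1.09, a call lost without normal 1, normal 2, tumor 5 or tumor 6 and with upper quartile scaling.

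**Figure D4:**
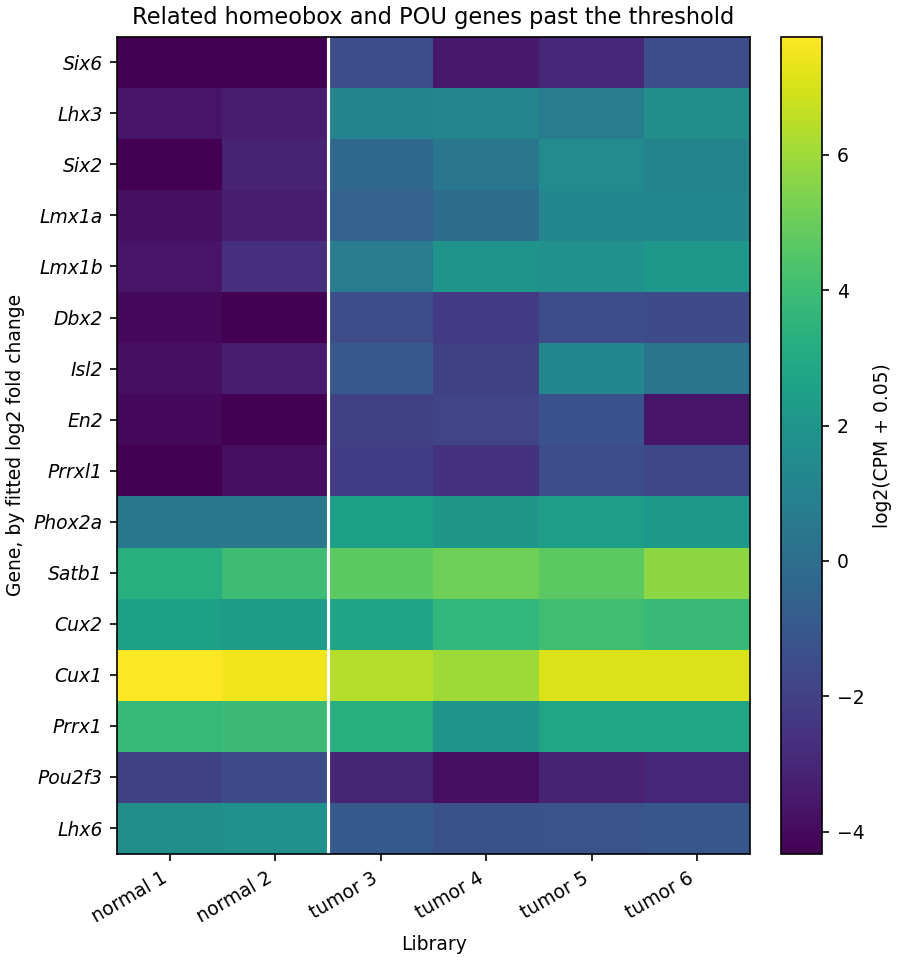
Of the 20 related homeobox and POU genes that passed the test, 16 are drawn, as log2(CPM + 0.05) in each library, ordered by fitted log2 fold change. The 12 rows above Cux1 rose in tumors and the last 4 fell. Six2 and Prrxl1 are darkest in normal 1, and Six6 in both normal libraries, with 0 counts there.

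Genes of the LIM cofactor and Groucho families, called cofactor genes here, were also examined. Of 16 tested, 3 rose and 6 fell. These are 18.75% and 37.5%, beside 31.3% and 32.6% of all genes tested. Of 10 LIM cofactor genes, 3 rose, 3 fell and 4 did not pass. Ldb2 and Lmo2, both also expressed in endothelium, fell by 3.88 ± 0.29 and 3.43 ± 0.27 on the log2 scale (SE, edgeR adjusted p = 9.54e-05 and 0.000122), and Lmo4 fell by 0.99, not past the threshold without normal 1. Ldb1, the general LIM-binding cofactor, was among those that did not pass. Ssbp3 rose by 0.85 ± 0.20, Lmo1 by 2.95 ± 0.92 and Lmo3 by 6.05 ± 1.66, none of them past the threshold without normal 1, and neither Ssbp3 nor Lmo1 without normal 2. Lmo1 also failed without tumor 5. The Groucho family includes corepressors through which Nkx2-2 represses. Of its 6 genes listed, Tle4, Tle1 and Aes fell (log2 fold changes of -1.98, -0.73 and -0.47) and 3 did not pass. Tle1 and Aes lost their calls without normal 1, normal 2 or tumor 6, and Aes also with RLE, upper quartile or no composition scaling and with the stricter filter. The endothelial markers Pecam1 and Cdh5 fell (log2 fold changes of -5.39 and -5.58), and the part of endothelium in the fall of Ldb2 and Lmo2 was not tested.

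Downstream genes, as they are called here, were listed from sensory neurons, islets, retina and pineal, where Isl1, Pou4f1, Nkx2-2 and Otx2 act. Whether these factors act on the listed genes in these samples was not tested. Among 27 tested, 11 were higher, 5 lower and 11 not past the threshold. Those that rose were 40.7% and those that fell 18.5%, beside 31.3% and 32.6% of all genes tested. Tac1, with 0 normal counts, Iapp, with 1, and Tph1, with 2, entered the test through the tumors and could hardly be called lower. These shares are therefore not read as a lean of the list. Among 15 sensory neuron genes, 5 rose, 3 fell and 7 did not pass. The neurofilament genes Nefh, Nefm and Nefl rose by 5.77 ± 0.90, 6.52 ± 1.36 and 5.76 ± 1.80 (SE, edgeR adjusted p = 0.00168, 0.00562 and 0.0275, the last lost without tumor 5). Without normal 1 these values were 4.92, 5.59 and 4.75, and without normal 2 Nefh was at 7.92 and Nefm at 9.52. Prph, a neuron filament gene, and Tac1, the substance P gene, rose too, and both lost their calls when either normal library was left out, Prph also with limma voom and without tumor 3. Runx1, Gal and Scn10a fell (log2 fold changes of -3.82, -3.57 and -1.93), the last not past the threshold with DESeq2, without normal 1 or without normal 2. Among 9 islet genes, 5 rose and 4 did not pass. The prohormone convertase genes Pcsk1 and Pcsk2 rose by 5.30 ± 0.63 and 7.12 ± 1.12 on the log2 scale (SE), and Pcsk2 by 6.29 without normal 1 and 9.09 without normal 2. Neurod1, also on the neuroendocrine marker list, rose by 8.79 ± 1.43, or 7.77 without normal 1, and had 0 counts in normal 1. Iapp, the amylin gene, rose from 1 normal count, and its call was lost when either normal library was left out. Of the retina and pineal genes, 3 of 9 entered the test, of which Tph1 rose, a call lost with limma voom and when either normal library was left out, and Prdm1 and Aanat fell (log2 fold changes of -3.42 and -2.16). Aanat lost its call with DESeq2 and when either normal library was left out.

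Markers of other neural cells gave a mixed picture. Of 5 peripheral ganglion markers tested, Nefh, Chrna3 and Prph rose and 2 did not pass, while Dbh, the noradrenaline synthesis gene, was under the filter with 0 and 5 counts in normal lung and 0 in every tumor. The summed ganglion level was 1.02 and 3.72 CPM in normal lung and 55.3 to 79.1 CPM in tumors, of which Nefh, also on the sensory neuron list, made up 47.2 to 77.0 CPM. Of 7 Schwann cell markers tested, Erbb3 fell and 6 did not pass, with sums of 148 and 166 CPM in normal lung and 71.5 to 110 CPM in tumors.

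The genes whose levels were most like each of the 7 tested genes were found over the 6 libraries among 14507 genes with a mean log2 CPM of at least 0. Likeness was the root mean square difference in log2 CPM after each gene's own mean was taken off, so smaller is closer, and the difference between tumor and normal lung takes part in it. Closest to Prox1 were Unc13a, a synaptic vesicle priming gene, at 0.16, the RNA-binding gene Msi1 at 0.17 and the calcium channel gene Cacna1b at 0.20. Closest to Pou3f4 were Sncb at 0.31, Srrm3 at 0.34 and Dock3 at 0.40. Onecut2 was matched by Jph4 at 0.28, Amer3 at 0.30 and Epha8 at 0.32.

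The uneven genes had other neighbors. Pou3f2 was nearest to the homeobox gene Shox2 at 0.46, which stood at 43.5, 1.04, 12.3 and 5.25 CPM in tumors 3 to 6, followed by Lrrtm4 and Slc6a5 at 0.60 each. Pou4f1 was nearest to Wnt7b at 0.22, Fkbp11 at 0.26 and the epithelial factor gene Elf3 at 0.34, each highest in tumor 4. Lhx2 was nearest to Dab1 at 0.32, Kcnb2 at 0.38 and Ccdc106 at 0.48, each highest in tumor 5. For Isl1 the nearest genes of those compared were Akap6 at 1.24, Sphkap at 1.29 and Edaradd at 1.32. Isl1, Pou4f1 and Lhx2 themselves lay under that minimum, and genes as low as they are were not compared.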

How the data were processed

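RNA of whole lung tissue from 4 tumors and 2 normal lungs was poly(A)-selected and made into NEBNext Ultra II libraries, per the labels' protocols. The deposited table holds raw counts per gene from TPMCalculator, per the labels. The submitters' processing notes list the build mm9, the aligner STAR 2.5.4a and the trimmers Trimmomatic 0.36 and Trim Galore, with no order. Of counts from 1 to 10, 61.2% were even, so mates of a read pair may have been counted singly.

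Groups came from the sample titles, in 1 batch. Counts were tested with edgeR 4.0.16 in R 4.3.3 (quasi-likelihood, TMM, filterByExpr with minimum count 10 and minimum total 15, tissue as the only term), with P-values adjusted over the 18027 genes kept. The SE is the log2 fold change divided by the square root of F, and 2 is the prior count of log2 CPM. Alternatives were RLE, upper quartile or total-count scaling, testing every gene, a stricter filter asking 1 CPM throughout a group, limma 3.58.1 voom, DESeq2 1.42.0, counts halved and rounded up, and leaving out each library. The fit was tested on simulated data. The 9 genes and all lists were chosen with earlier results of these data known. Named genes were the 9, up to 6 called genes per list and direction by smallest p, and the 3 nearest patterns per gene. Lhx5, Nkx6-1, Lhx1, Pou4f2, Pou4f3, Pou3f3, Onecut1, Dbh, Ldb1, Pou3f1, Nkx2-1, Reln and Calca were named after their values were seen. Of the listed genes, 7 symbols had no row and were not analysed here. Some listed genes enter the counts but are not reported here by name. Promoters are those of RefSeq on GRCm38.p6, which lists 8 of the 9 genes in the table used.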

Additional observations from a re-analysis of the deposited data

Results flagged for a closer look

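Among 103 genes examined, 11 had 1 tumor standing apart from the other 3, where the gap to the nearest tumor made up more than 0.829 of the range of the 4. Chance flags about 1 gene in 20 where values are normally distributed, which CPM need not be, and genes of 1 sample are not independent. Lhx5, Pou4f2 and Pou4f3 were added after their values were seen. Fkbp11 and Dab1 entered through their likeness to Pou4f1 and Lhx2. The 11 of 103 therefore cannot be read against that rate. None of the 9 genes was among them. Tumor 4 stood high for Iapp (8.95 CPM), Calca (293 CPM), Aanat (0.177 CPM) and Fkbp11 (33.4 CPM). Tumor 5 stood high for Lhx5 (2.36 CPM, the next at 0.120), Pou4f3 (0.521 CPM), Pou4f2 (0.443 CPM), Chrna3 (4.51 CPM), Dab1 (13.9 CPM) and Ssbp3 (98.0 CPM). Tumor 6 stood low for Ager (1.59 CPM, the next at 43.0).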

How the results depend on the processing

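Prox1, Onecut2 and Pou3f4 kept their direction and call under every alternative run. With the stricter filter, which Pou3f2, Lhx2, Isl1 and Pou4f1 did not enter, 3 of the 9 genes were higher, 7 related genes were higher and 2 lower, and 7 downstream genes were higher and 3 lower. Fewer genes were tested there. Related genes lower were 2 with upper quartile scaling and downstream genes lower were 3 with DESeq2. Isl1 passed with DESeq2 (3.88) and Pou3f2 missed the threshold with limma voom (7.63). The cause was not tested.

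Leaving out 1 library gave 3373 to 5912 genes higher over all genes, 5 to 6 higher among the 9 (Isl1 joining without tumor 4, Nkx2-2 entering the test without normal 1, normal 2, tumor 5 or tumor 6), 8 to 18 related genes higher and 1 to 5 lower, 0 to 4 cofactor genes higher and 3 to 7 lower, and 7 to 12 downstream genes higher and 3 to 6 lower. The log2 fold change ran from 2.92 to 6.35 for Isl1, 5.92 to 12.3 for Pou3f2, 4.44 to 8.10 for Lhx2 and -0.36 to 1.33 for Pou4f1, the last being negative without tumor 4. The upper end of Pou3f2 and of Lhx2 comes from fits with 0 normal counts. It depends on edgeR's default prior count for fold changes, not on the 2 used for log2 CPM. With 1 normal library left, its spread was taken from the tumors. Upper quartile scaling moved the median log2 fold change of all genes from 0.02 to 0.14, and no filter to 0.12. No paired analysis was possible because the groups share no replicate number. With 2 normal lungs and few counts of most of the 9 genes in them, the size of each change is poorly fixed.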

Other observations

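Several LIM and NK homeobox genes outside the 9 had their highest counts in tumor 5, as Isl1 did. Nkx6-1, an islet and motor neuron gene, had 0 and 18 counts in normal lung and 24, 2, 460 and 268 in tumors 3 to 6 (log2 fold change 4.73 ± 2.32, edgeR adjusted p = 0.114). Isl2, a paralog of Isl1, had 31, 10, 173 and 83 counts in tumors 3 to 6, and Lhx1 had 100, 5, 243 and 52 (edgeR adjusted p = 0.0516). Lhx5 had 0, 2, 181 and 8 counts, Pou4f2 had 4, 0, 34 and 2, and Pou4f3 had 1, 0, 40 and 3, with 0 counts of these last 3 in both normal lungs. Tumor 5 had the most counts of all 6 of these genes. Each of these genes was picked after its values were seen, and no test was made between tumors, which are 1 animal each.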
